A study of Mus musculus with 6 samples.

Results

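The 10 genes described here encode enzymes that carry glucose to lactate: Hk2, Gpi1, Pfkm, Aldoa, Tpi1, Gapdh, Pgk1, Eno1, Pkm and Ldha. They were chosen by name from the 11844 mouse genes in the transcript table, and every transcript listed for them was kept, 45 of 23959. RNA was sequenced from C2C12 cells, a mouse myoblast line, grown in high-glucose medium with 10% fetal bovine serum and then moved to 2% horse serum, which lets myoblasts leave the cell cycle and fuse. Of the 6 libraries, 3 came from cells given a negative control siRNA (siNC) and 3 from cells given an siRNA against CNN3 (siCNN3), the actin-binding protein calponin 3. All 6 shared the line, the media and the transfection, and the label calls the cells mouse myotubes. The knockdown acts on whichever cells took up the siRNA, and all libraries derive from 1 cell line.

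In glycolysis a hexokinase traps glucose as its 6-phosphate, 2 further steps make fructose 1,6-bisphosphate, and aldolase splits it into triose phosphates. Gapdh then makes the NADH and Pgk1 and pyruvate kinase make the ATP that the pathway yields, while lactate dehydrogenase returns NADH to NAD+. In skeletal muscle the pathway supplies fast ATP, several of its genes are known targets of the oxygen-regulated factor HIF1, and Gapdh and Pgk1 are widely used as reference genes.

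Levels are FPKM, a level scaled to the length of the transcript and to the mapped fragments of the library, so they can be compared between genes. No read counts were used here, so the depth behind each value is unknown. The 6 libraries summed to between 322621 and 355591 FPKM, and between 978 and 2131 of their transcripts were listed at 0. The targeted gene was lower in every siCNN3 library: Cnn3 measured 62.8, 61.4 and 62.8 FPKM in siNC against 19.0, 39.2 and 25.6 FPKM in siCNN3, a mean of 44.8% of siNC. The log2 fold change of -1.19 (SE 0.24) had an adjusted p of 0.0665 (limma, Benjamini-Hochberg over all genes), so it did not pass the threshold of 0.05. Of the myoblast and myotube markers, 5 of 10 tested were called lower, all 5 of contractile proteins (Acta1, Mylpf, Tnnt1, Tnnc2 and Myh3). The myoblast factor Myf5 was the only 1 of the 10 with a log2 fold change above 0. Myf5 was at 3.55, 5.64 and 4.84 FPKM in siNC against 12.95, 11.4 and 5.40 FPKM in siCNN3 (log2 fold change 0.88, adjusted p = 0.238, limma). Another myoblast factor, Myod1, went the other way (log2 fold change -0.42, adjusted p = 0.312, limma), as did Des (-0.36, adjusted p = 0.196, limma). The groups did not overlap for Myod1 or Des, and neither was called. Myog was at most 3.07 FPKM and Ckm, the muscle creatine kinase, was under 1 FPKM in every library. The 11 markers summed to 179 to 214 FPKM in siNC and 113 to 127 FPKM in siCNN3. All 4 interferon-response genes examined were called higher in siCNN3, and summed to 8.04, 107 and 24.8 FPKM in siNC and to 2048, 1969 and 1097 FPKM in siCNN3. Of 6 blood and immune markers 3 were listed, with sums of 83.6, 256 and 80.6 FPKM in siNC and 15.5, 15.7 and 11.8 FPKM in siCNN3, mostly the globin Hbb-bs, which was called lower. The adipocyte marker Fabp4 was called lower as well. The part of these differences in the results below was not tested.

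None of the 10 glycolytic genes was called between siCNN3 and siNC when the transcripts of each gene were summed. Across all 11602 genes tested 1.73% were called higher and 0.336% lower. The adjusted p-values of the members ran from 0.296 for Tpi1 to 0.993 for Gpi1 (limma), and 1 of the 10, Tpi1, had an unadjusted p under 0.05. Of the 11602 genes tested, 1155 were higher and 712 lower at that unadjusted p. Log2 fold changes were above 0 for 5 of the 10, with a median of 0.028 beside 0.028 over all genes tested. Libraries of the same group differed among themselves. The standard deviation of log2(FPKM + 1) within siNC was above the median of the 555 genes that averaged 100 FPKM or more (0.15) for 6 of the 10 members, close to the share that a median sets, and above their 90th percentile (0.44) for Gpi1 alone. Within siCNN3 it was above the median (0.15) for 8 of the 10 and above the 90th percentile (0.42) for 5 of the 10: Hk2, Gpi1, Aldoa, Gapdh and Pgk1. Tpi1 varied less in siCNN3 (0.042) than in siNC (0.14), and the siCNN3 spread of Gapdh rested on 1 transcript. Hk2 and Pfkm are expressed below the genes they are set against here. Replicates that were separate samples by their labels are treated as such throughout; nothing states that they came from separate cultures, so p-values measure the spread between these samples, which may be technical.

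**Figure D1:**
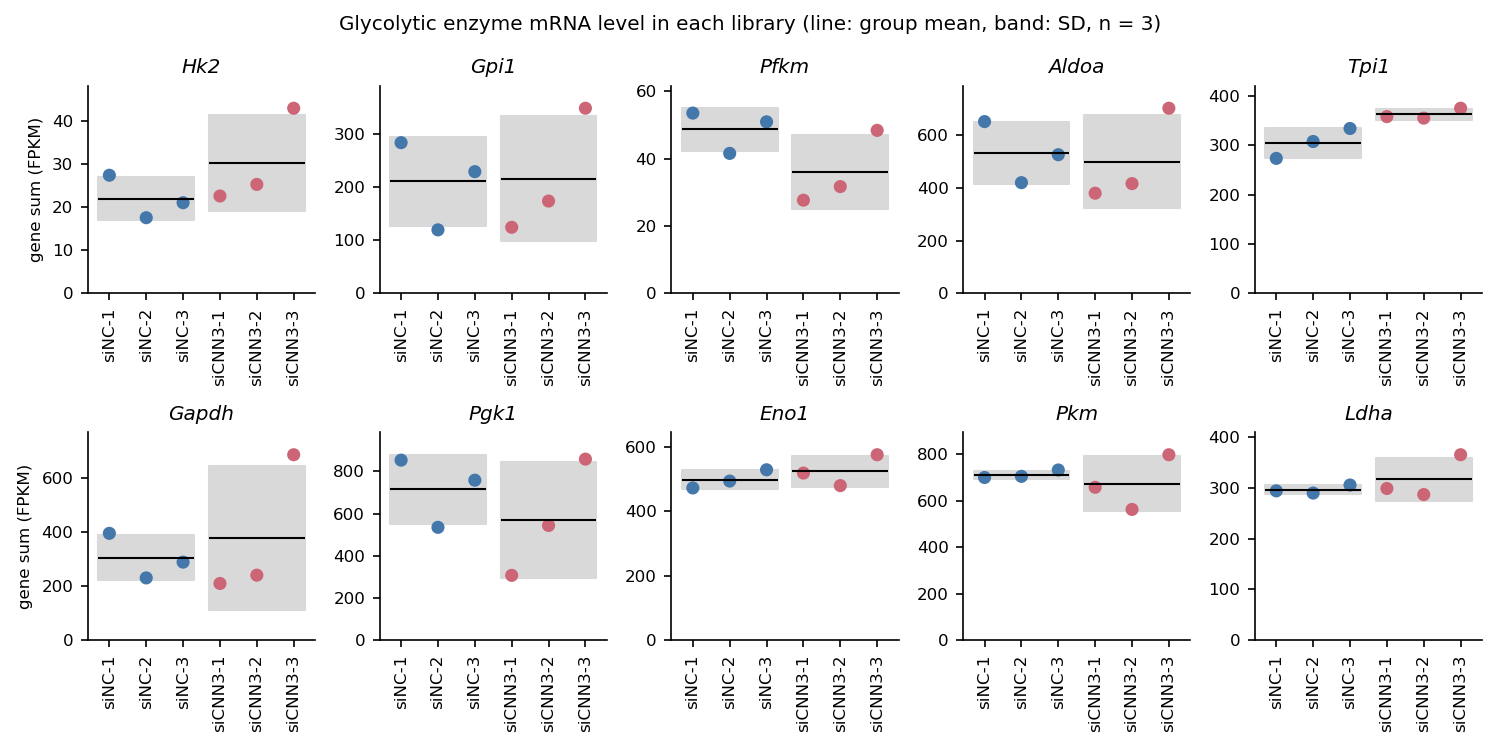
Each panel plots the summed FPKM of 1 glycolytic gene in the 3 siNC (blue) and 3 siCNN3 (red) libraries from 0, with the group mean as a line and the SD as a grey band. The siCNN3-3 library holds the highest red point in all 10 panels, and Tpi1 is the 1 panel in which red and blue points do not overlap.

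By mean level over the 6 libraries, Pkm (692 FPKM) and Pgk1 (643 FPKM) came first, followed by Aldoa (516 FPKM), Eno1 (512 FPKM), Gapdh (341 FPKM), Tpi1 (334 FPKM), Ldha (307 FPKM) and Gpi1 (213 FPKM). Pfkm (42.3 FPKM) and Hk2 (26.2 FPKM), which encode the 2 regulated kinases of the upper pathway, were far lower. The first 2 means lay closer together than the spread of Pgk1 over the libraries, as did those of Aldoa and Eno1, and those of Gapdh, Tpi1 and Ldha. Without its transcript Gapdh-201, listed above 0 in siCNN3-3 only, Gapdh had a mean of 269 FPKM, below those of Tpi1 and Ldha.

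Hk2, the hexokinase typical of insulin-sensitive muscle, lies at chr6:82725025-82774454 on the minus strand (GRCm38) and was represented by 1 transcript. It measured 27.4, 17.6 and 21.1 FPKM in siNC and 22.6, 25.3 and 43.0 FPKM in siCNN3. The siCNN3-3 library was the highest and siNC-2 the lowest, and the other siCNN3 libraries lay inside the siNC range. The means were 22.0 ± 5.0 and 30.3 ± 11.1 FPKM (SD, n = 3 each), and the log2 fold change of 0.41 had an adjusted p of 0.510 (limma). Gpi1, glucose-6-phosphate isomerase (chr7:34201330-34230336, minus strand), spanned 284, 120 and 229 FPKM in siNC and 124, 174 and 348 FPKM in siCNN3. The lowest and highest libraries differed 2.91-fold, yet the group means of 211 ± 83 and 216 ± 118 FPKM nearly coincided (log2 fold change -0.01, adjusted p = 0.993, limma). One transcript, Gpi1-201, carried 98.7% of the mean, at 278, 118 and 227 FPKM in siNC and 123, 172 and 344 FPKM in siCNN3.

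Pfkm, the muscle phosphofructokinase and the committed step of the pathway (chr15:98108466-98132441, plus strand, 1 transcript), measured 53.5, 41.6 and 50.9 FPKM in siNC and 27.7, 31.7 and 48.4 FPKM in siCNN3. In siCNN3, 2 libraries lay below every siNC library and siCNN3-3 lay among them, which gave a log2 fold change of -0.46 (95% interval -0.98 to 0.06, adjusted p = 0.362, limma). Without siCNN3-3 the log2 fold change was -0.69, with an adjusted p of 0.0621 (limma). Its isoform Pfkl, the liver form, measured 66.2, 73.0 and 69.5 FPKM in siNC and 63.4, 62.5 and 76.4 FPKM in siCNN3, a higher level than Pfkm; Pfkl was picked after its values were seen.

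Aldoa, the muscle aldolase (chr7:126795234-126809108, minus strand), summed 8 transcripts to 651, 420 and 526 FPKM in siNC and 380, 416 and 702 FPKM in siCNN3. Again siCNN3-3 was highest and the groups overlapped (log2 fold change -0.12, adjusted p = 0.853, limma). The main transcript, Aldoa-201, held 86.0% of the mean and measured 543, 357 and 439 FPKM in siNC and 335, 367 and 621 FPKM in siCNN3. A minor one, Aldoa-204, was listed at 0 in siNC-1 and at under 1 FPKM elsewhere. Tpi1, triose phosphate isomerase (chr6:124810586-124814296, minus strand), was the only member with groups that did not overlap: 274, 308 and 334 FPKM in siNC against 358, 355 and 375 FPKM in siCNN3. Among all genes tested 23.1% had groups that did not overlap. Nearly all of it was Tpi1-205, at 272, 306 and 331 FPKM in siNC and 355, 353 and 372 FPKM in siCNN3. The gene's means of 305 ± 30 and 363 ± 11 FPKM gave a log2 fold change of 0.25 (95% interval 0.01 to 0.50), an adjusted p of 0.296 (limma) and an exact two-sided permutation p of 0.1, the smallest that 3 against 3 allows. The direction was the same in each of the 15 alternative settings, with log2 fold changes from 0.12 to 0.32 and none called.

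Gapdh, which oxidizes glyceraldehyde 3-phosphate (chr6:125161853-125166467, minus strand), summed to 394, 229 and 288 FPKM in siNC and to 209, 239 and 684 FPKM in siCNN3. The siCNN3-3 value was 3.28 times the lowest, while siCNN3-1 lay below every siNC library and siCNN3-2 just above the lowest of them. The means were 304 ± 83 and 378 ± 266 FPKM, and the log2 fold change of 0.13 had a 95% interval from -0.94 to 1.20 (adjusted p = 0.917, limma). One transcript decided the sign. Gapdh-201 was listed at 0 in all 3 siNC libraries and in siCNN3-1 and siCNN3-2, and at 432 FPKM in siCNN3-3, where it made up most of the gene. Gapdh-203, the leading transcript of the other 5 libraries, measured 364, 214 and 262 FPKM in siNC and 189, 223 and 178 FPKM in siCNN3, so it was lowest in the library in which Gapdh-201 appeared.

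Both transcripts hold the same 999 coding bases and share 1198 bases in all, and they differ in their first exon only. That of Gapdh-201 is 74 bases long (chr6:125166394-125166467) and that of Gapdh-203 is 222 bases long (chr6:125165552-125165773), both noncoding. A transcript listed at 0 may be an estimate that failed rather than an absence, and Gapdh-202, which begins with the first exon of Gapdh-201, was above 0 in all 6 libraries (0.53 to 3.59 FPKM). A further estimate, Gapdh-212, a fragment with an incomplete coding end (named after its values were seen), stood at 5.54 to 13.3 FPKM in 5 libraries and at 51.1 FPKM in siCNN3-3. All 884 of its bases lie within Gapdh-203. Of the 23959 transcripts, 1.38% combined a 0 in some library with 10 FPKM or more elsewhere, and Gapdh-201 was the only one of the 45 here.

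When only transcripts above 0 in all libraries were summed, Gapdh measured 394, 229 and 288 FPKM in siNC and 209, 239 and 252 FPKM in siCNN3. The siCNN3-3 value then lay inside the siNC range, the log2 fold change turned to -0.35 (adjusted p = 0.468, limma), and the CV (the SD as a percentage of the mean) was 27.5% in siNC and 9.59% in siCNN3. Gapdh also has many near-identical copies: 82.5% of the 50-base words of Gapdh-203 occur in transcripts of 218 other annotated genes, of which 3 are in the table, so reads could be split among them. The annotated Gapdh-like genes Gm10358 and Gm3839 were low. Gm10358 measured 2.87, 1.68 and 2.43 FPKM in siNC against 1.91, 1.78 and 3.52 FPKM in siCNN3, and Gm3839 measured 2.31, 1.51 and 2.31 FPKM against 1.5, 1.73 and 2.91 FPKM. Both were highest in siCNN3-3, as the full Gapdh sum was and the sum without Gapdh-201 was not. They share 65.35% and 57.11% of the words, so their values may come from the same reads as Gapdh. Peli2, which shares 6.13%, was not highest there. It measured 7.59, 10.7 and 10.1 FPKM in siNC against 5.82, 5.51 and 6.61 FPKM in siCNN3.

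**Figure D2:**
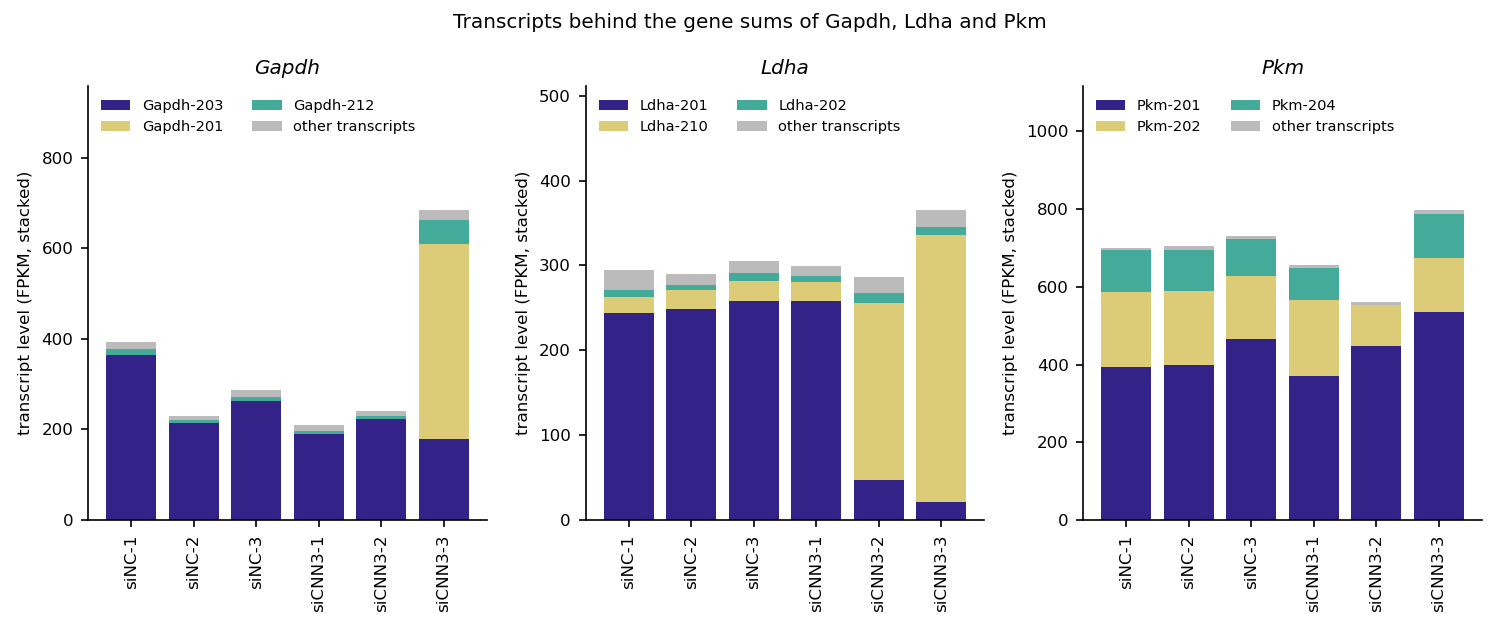
Stacked bars give the FPKM of the 3 most abundant transcripts and of all others for Gapdh, Ldha and Pkm in each of the 6 libraries. Gapdh-201 appears in siCNN3-3 alone at 432 FPKM, Ldha-210 replaces Ldha-201 in siCNN3-2 and siCNN3-3, and Pkm-204 is at 0.57 FPKM in siCNN3-2.

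Pgk1, phosphoglycerate kinase (chrX:106187100-106203699, plus strand, 1 transcript), measured 854, 535 and 759 FPKM in siNC and 307, 544 and 859 FPKM in siCNN3. The siCNN3-1 library was the lowest and siCNN3-3 marginally the highest of all 6, a 2.80-fold range. The group means of 716 ± 164 and 570 ± 277 FPKM did not differ beyond that spread (log2 fold change -0.42, adjusted p = 0.617, limma). With 1 listed transcript, no division between listed isoforms enters its value, although 68.0% of its 50-base words also occur in other annotated genes, none of them in the table.

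Eno1, enolase 1 (chr4:150236721-150248879, plus strand), was the steadiest member: 473, 494 and 529 FPKM in siNC and 519, 480 and 576 FPKM in siCNN3, a CV of 7.48% over the 6 libraries. Its log2 fold change was 0.07 (95% interval -0.17 to 0.32, adjusted p = 0.773, limma). The leading transcript, Eno1-202, held 67.2% of the mean and measured 323, 320 and 355 FPKM in siNC and 333, 350 and 381 FPKM in siCNN3. A shorter one that begins inside the gene, Eno1-201, held 29.7%. The near copy Eno1b shares 70.5% of the 50-base words of Eno1-202 and was itself listed at 186, 194 and 210 FPKM in siNC and 201, 194 and 234 FPKM in siCNN3, so the division between the 2 genes is uncertain.

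Pkm, pyruvate kinase of muscle (chr9:59656368-59679375, plus strand), summed 9 transcripts to 700, 705 and 732 FPKM in siNC and 658, 562 and 798 FPKM in siCNN3 (log2 fold change -0.10, adjusted p = 0.765, limma). The 3 siNC values lay within a CV of 2.44%, and the siCNN3 values lay on both sides of them. Pkm makes 2 enzymes by the choice between a pair of exons. The M1 form is typical of mature muscle and the M2 form of growing cells. Their exons are printed here because they are the coding difference between Pkm-201 and Pkm-202. Each is the 9th exon of its transcript and 167 bases of coding sequence. In all, Pkm-201 holds 558 bases that Pkm-202 lacks, and its first exon has 282 bases against 77. The exons printed are therefore not all that tells the 2 transcripts apart. Lower case marks bases that are the same at that position in both, and capitals the 64 that differ, so that 61.7% are identical (GENCODE transcripts, GRCm38, plus strand, chr9:59675568-59675734 for Pkm-201 and chr9:59675029-59675195 for Pkm-202).
Pkm-201, M2 exon: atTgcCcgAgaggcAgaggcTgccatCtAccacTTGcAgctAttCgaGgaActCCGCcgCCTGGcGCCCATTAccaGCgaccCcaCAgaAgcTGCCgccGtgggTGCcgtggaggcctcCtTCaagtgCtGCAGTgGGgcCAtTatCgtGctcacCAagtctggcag
Pkm-202, M1 exon: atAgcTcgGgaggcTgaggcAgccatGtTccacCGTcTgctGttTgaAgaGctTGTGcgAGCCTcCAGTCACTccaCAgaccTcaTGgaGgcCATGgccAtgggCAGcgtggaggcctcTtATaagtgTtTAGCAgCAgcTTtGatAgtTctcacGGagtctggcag

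Pkm-201, the leading transcript with the M2 exon, measured 393, 399 and 466 FPKM in siNC and 369, 448 and 534 FPKM in siCNN3 (log2 fold change 0.09, adjusted p = 0.869, limma across transcripts). Pkm-202 with the M1 exon, named after its values were seen, measured 194, 189 and 161 FPKM in siNC and 198, 106 and 141 FPKM in siCNN3 (log2 fold change -0.33, adjusted p = 0.675, limma across transcripts). The share of Pkm-201 in the sum of the pair was 66.9%, 67.8% and 74.4% in siNC and 65.1%, 80.9% and 79.1% in siCNN3. It was above siNC in 2 siCNN3 libraries and below it in the other. This share is a ratio of transcript estimates and not a measure of exon use. The fragment Pkm-204, also named after its values were seen, stood at 107, 108 and 96.5 FPKM in siNC, then at 81.5 and 113 FPKM in siCNN3-1 and siCNN3-3, and at 0.57 FPKM in siCNN3-2, the library with the lowest Pkm sum.

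Ldha, lactate dehydrogenase A (chr7:46845839-46855627, plus strand), was steady as a gene: 294, 290 and 306 FPKM in siNC and 299, 287 and 365 FPKM in siCNN3 (log2 fold change 0.09, 95% interval -0.19 to 0.36, adjusted p = 0.753, limma). Its transcripts were not. Ldha-201 measured 244, 249 and 258 FPKM in siNC and 259 FPKM in siCNN3-1, but 46.9 FPKM in siCNN3-2 and 21.4 FPKM in siCNN3-3. Ldha-210, named after its values were seen, moved the other way: 17.9, 21.8 and 23.0 FPKM in siNC, 21.9 FPKM in siCNN3-1, 209 FPKM in siCNN3-2 and 314 FPKM in siCNN3-3. Ldha-201 thus made up 91.8% to 93.2% of the pair in the siNC libraries and siCNN3-1, 18.3% in siCNN3-2 and 6.38% in siCNN3-3.

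The sum of this pair stayed between 255 and 336 FPKM in the 6 libraries. All 1766 bases of Ldha-201 lie within Ldha-210, which begins 49 bases earlier, at 46847082 rather than 46847131 on chromosome 7, so only those bases tell them apart. Neither was called with all libraries (log2 fold change -1.95, adjusted p = 0.483 for Ldha-201, and 2.40, adjusted p = 0.456 for Ldha-210, limma across transcripts). Without siCNN3-1, the siCNN3 library that kept the siNC pattern, Ldha-210 was called higher (log2 fold change 3.56, adjusted p = 0.0324, limma across transcripts). That call thus depended on leaving out the siCNN3 library without the shift. Of all transcripts tested in that setting 7 were called higher and 3 lower. Taking only the leading transcript to stand for the gene would therefore give a log2 fold change of -1.95 for Ldha in place of 0.09.

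Of the 45 transcripts 44 passed the filter of a mean of 0.5 FPKM, and none of those was called. Of all transcripts tested 0.462% were called higher and 0.0785% lower. The lowest adjusted p was 0.422 (limma across transcripts), that of the minor transcript Aldoa-214. Although annotated to Aldoa and counted in its sum, Aldoa-214 shares 0 bases with the leading Aldoa-201. An unadjusted p under 0.05 was found for 3 of the 44 (Aldoa-214, Tpi1-205 and Ldha-210). Groups did not overlap for 3 of the 44 (Aldoa-214, Tpi1-205 and Ldha-207), beside 17.9% of all transcripts tested. Of the 7 members with several transcripts, Gapdh and Ldha changed their leading transcript between libraries, while 42.0% of all genes with several transcripts did.

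**Figure D3:**
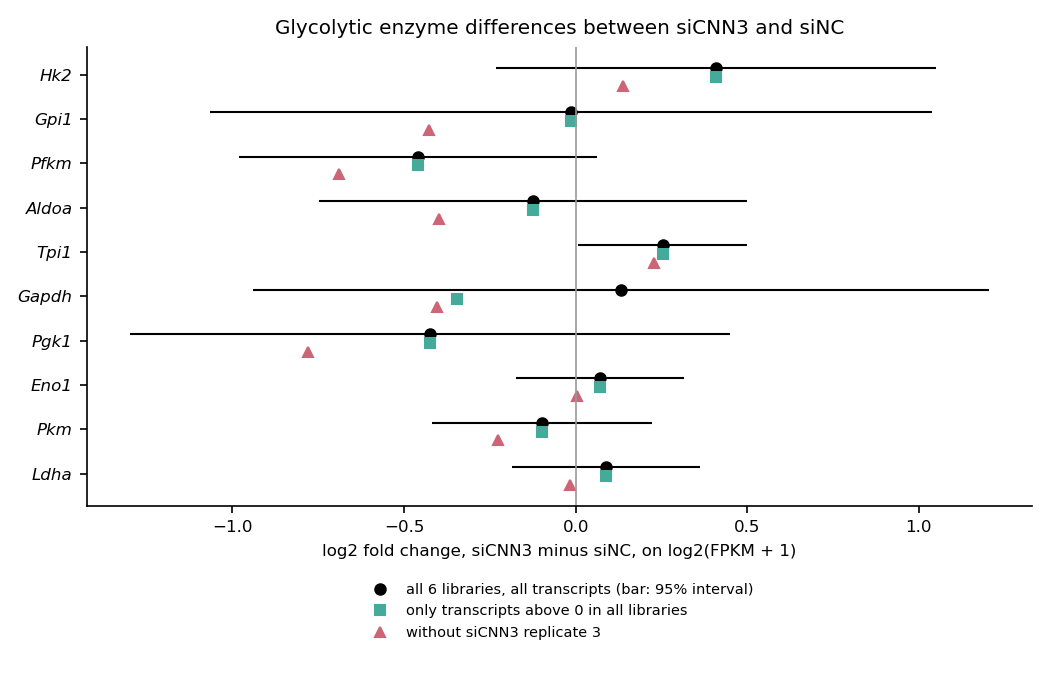
Black points with 95% intervals (limma) give the log2 fold change of each member, siCNN3 minus siNC, on log2(FPKM + 1). Green squares use only transcripts above 0 in all libraries and red triangles leave out siCNN3-3. Gapdh is at 0.13 with all transcripts and at -0.35 and -0.40 under the other 2, and each of the 10 triangles lies left of its black point.

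The members' levels differed between libraries within both groups. The siCNN3-3 library was the highest of all 6 for 9 of the 10 members, Pfkm being the exception, and for 8 of the 10 when Gapdh-201 was left out. It was so for 19.4% of all genes tested and for 29.0% of the 555 that averaged 100 FPKM or more, as 8 of the members did. The 10 genes together summed to 4003, 3159 and 3774 FPKM in siNC and to 2903, 3114 and 4798 FPKM in siCNN3. That is 1.24%, 0.901% and 1.09% of all matched FPKM in siNC and 0.817%, 0.887% and 1.37% in siCNN3, so both groups held high and low libraries. Without transcripts listed at 0 in a library the siCNN3-3 sum was 4365 FPKM, still the highest. In siNC it was siNC-2 that lay lowest for 7 of the 10. The interferon-response sum was also highest of siNC in siNC-2 (107 FPKM) and lowest of siCNN3 in siCNN3-3 (1097 FPKM). Any link between that sum and the members' levels was not tested. The order with siNC-2 lowest in its group and siCNN3-3 highest in its own, chosen after the values were seen, was met by 7 of the 10 members, with or without Gapdh-201, by 19.8% of all genes tested and by 27.4% of those that averaged 100 FPKM or more.

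The same order was met by 10 of the 10 measured genes of a list of HIF1 and its known targets and by 13 of 47 tested genes of the other lists of glucose and pyruvate metabolism. Ndrg1, a stress-response gene, ranged from 78.3 FPKM in siNC-2 to 280 and 242 FPKM in siNC-1 and siNC-3, and from 107 and 143 FPKM to 323 FPKM in siCNN3-1, siCNN3-2 and siCNN3-3. Vegfa, an angiogenic factor, measured 108, 42.3 and 85.6 FPKM in siNC and 78.5, 88.4 and 160 FPKM in siCNN3, and Slc2a1, the basal glucose carrier, measured 81.0, 36.4 and 54.4 FPKM in siNC and 38.2, 44.5 and 124 FPKM in siCNN3. These 3 were picked after their values were seen, as examples. Hif1a itself, whose protein level is set mainly after translation, varied less than Ndrg1, with a CV of 19.5% beside 51.1% (74.7, 69.0 and 79.0 FPKM against 48.3, 50.7 and 64.3 FPKM). Arnt (21.1%) and Egln1 (24.1%) of the same list were near Hif1a. The groups did not overlap for Hif1a (log2 fold change -0.45, adjusted p = 0.176, limma), as for 23.1% of all genes tested. The part of HIF1 in the members' spread was not tested.

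**Figure D4:**
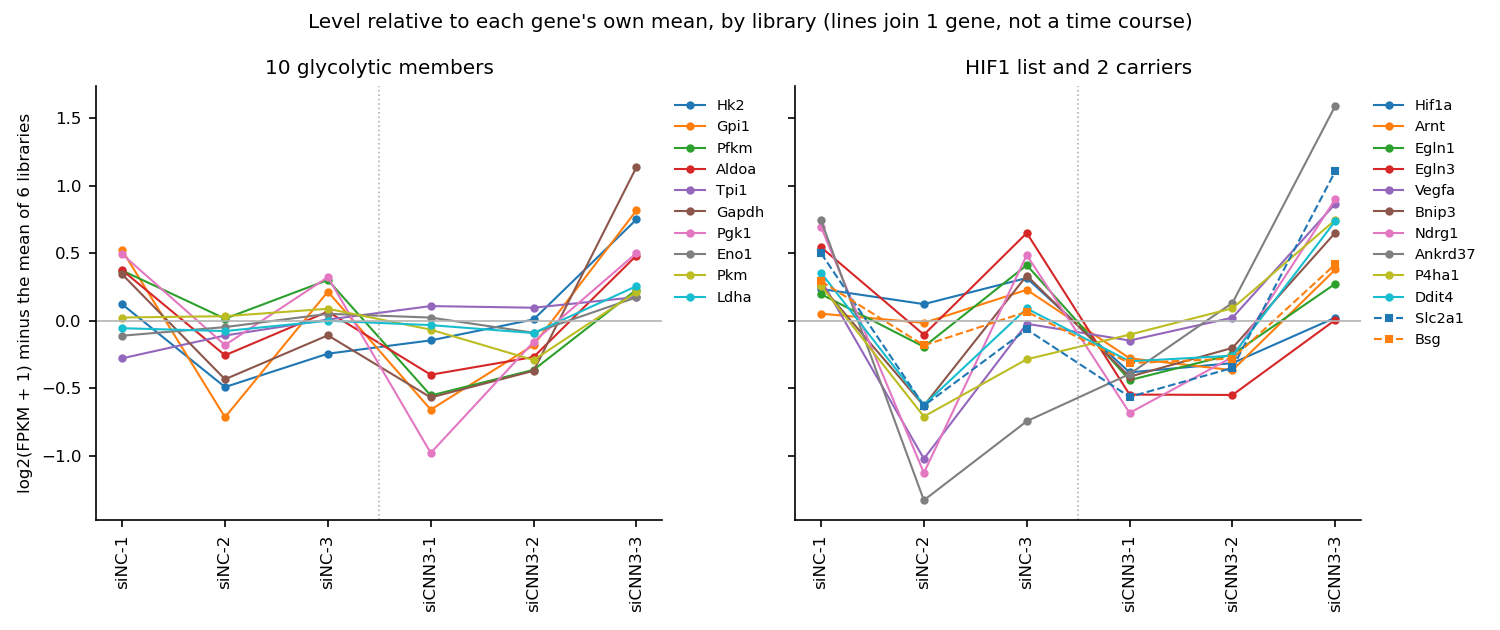
Lines give log2(FPKM + 1) minus the gene's own mean over the 6 libraries, for the 10 members (left) and for the HIF1 list with the carriers Slc2a1 and Bsg (right); a line joins the values of 1 gene and is no time course. In both panels most genes dip at siNC-2, siCNN3-1 and siCNN3-2 and peak at siCNN3-3, with Gapdh reaching 1.14 there and Tpi1, Eno1, Pkm and Ldha staying nearly flat.

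The spread over the 6 libraries differed between members. The CV was 53.1% for Gapdh, or 24.9% without Gapdh-201, 42.8% for Gpi1, 34.1% for Hk2, 34.0% for Pgk1, 26.1% for Aldoa and 25.1% for Pfkm, but 11.4% for Pkm, 11.3% for Tpi1, 9.61% for Ldha and 7.48% for Eno1. Among 554 other genes that averaged 100 FPKM or more, the profile closest to that of the Gapdh sum over the 6 libraries was that of Gpi1, with a root mean square difference of 0.25 in centred log2(FPKM + 1). Next came Fam162a (0.28), Errfi1 (0.30), Bnip3 (0.30) and Aldoa (0.30). Fam162a measured 349, 194 and 310 FPKM in siNC and 242, 263 and 456 FPKM in siCNN3. Errfi1 measured 198, 65.4 and 134 FPKM in siNC and 69.7, 89.3 and 212 FPKM in siCNN3. Bnip3, a mitophagy receptor, measured 160, 85.8 and 169 FPKM in siNC and 99.8, 116 and 210 FPKM in siCNN3. All 3 were lowest in siNC-2 and highest in siCNN3-3. With Gapdh-201 left out the 5 closest were instead Anxa2 (0.15), Tmem50a (0.17), Slc16a1 (0.17), Eif4b (0.18) and Eif3e (0.18), and Gpi1 fell to rank 373. The other 6 members that averaged 100 FPKM or more had smaller differences from Gapdh on that flatter sum but all fell in rank, Aldoa from 5 to 78 and Pgk1 from 18 to 292.

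The promoters of the 4 members with the largest ratio of highest to lowest library are shown (Gapdh is among them through Gapdh-201, without which its ratio was 1.89, below the 1.93 of Pfkm), as 250 bases before the RefSeq start (GRCm38.p6), with the HIF core motif in capitals, searched as ACGTG and GCGTG on both strands; CACGTG counts once on each strand. The windows are chr6:82774455-82774704 (Hk2, minus strand), chr7:34230337-34230586 (Gpi1, minus strand), chr6:125165774-125166023 (Gapdh, minus strand, before the first exon of Gapdh-203) and chrX:106186850-106187099 (Pgk1, plus strand).
Hk2: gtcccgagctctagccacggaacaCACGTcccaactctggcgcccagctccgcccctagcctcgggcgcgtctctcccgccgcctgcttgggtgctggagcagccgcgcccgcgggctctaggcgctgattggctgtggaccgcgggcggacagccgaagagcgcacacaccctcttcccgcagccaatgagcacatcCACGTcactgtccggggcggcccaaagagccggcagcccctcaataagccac
Gpi1: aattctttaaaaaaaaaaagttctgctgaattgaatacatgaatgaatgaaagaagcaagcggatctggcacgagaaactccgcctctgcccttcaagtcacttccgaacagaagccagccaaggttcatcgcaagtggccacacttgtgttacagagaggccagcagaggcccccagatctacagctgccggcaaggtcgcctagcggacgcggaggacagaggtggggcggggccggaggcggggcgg
Gapdh: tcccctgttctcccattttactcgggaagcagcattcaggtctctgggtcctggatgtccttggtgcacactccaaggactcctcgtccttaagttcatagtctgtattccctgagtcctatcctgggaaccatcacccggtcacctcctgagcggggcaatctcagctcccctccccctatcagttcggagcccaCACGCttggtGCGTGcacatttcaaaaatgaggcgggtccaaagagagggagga
Pgk1: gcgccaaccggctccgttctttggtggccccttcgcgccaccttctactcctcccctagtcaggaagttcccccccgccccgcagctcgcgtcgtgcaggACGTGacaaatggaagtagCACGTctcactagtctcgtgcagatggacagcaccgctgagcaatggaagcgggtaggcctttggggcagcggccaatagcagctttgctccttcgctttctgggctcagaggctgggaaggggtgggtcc

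Hk2, Gapdh and Pgk1 each held 2 matches and Gpi1 held none in this window. All 10 members had at least 1 RefSeq start, 19 in all, and 8 of the 10 had a match before at least 1 of them, Ldha with 5 before its upstream start. Of all 9074 tested genes with a listed promoter, 62.2% had a match, and of all 32851 promoters 38.6% did, so the motif was common and the members' share is a description only. The 10 HIF1-list genes with a promoter all had a match.

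The other genes of the pathway and its branches gave no call either. Of 75 listed genes, 58 were in the table and 57 were tested, with 0 called higher and 0 called lower (limma), a median log2 fold change of 0.022 and 30 above 0. The largest differences were those of Pdk4, a pyruvate dehydrogenase kinase (39.2, 16.8 and 23.8 FPKM against 43.1, 42.6 and 71.3 FPKM, log2 fold change 0.99, adjusted p = 0.209, limma), of Pck2, a mitochondrial PEP carboxykinase (10.9, 10.1 and 11.2 against 27.7, 25.4 and 14.1 FPKM, 0.95, adjusted p = 0.121), and of Pcx, pyruvate carboxylase (7.74, 14.7 and 9.62 against 5.64, 4.77 and 4.67 FPKM, -0.92, adjusted p = 0.110). For each of these 3, picked by the size of their change, the groups did not overlap, as was the case for 23.1% of all genes tested. Without siCNN3-3 4 of the 57 were called, Adpgk and Pck2 higher and Hif1a and Pdk2 lower, while 3.85% of all genes were called higher and 1.39% lower in that setting.

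By role, 13 isoforms and side-branch enzymes of glycolysis had a median log2 fold change of -0.05 and 13 genes of pyruvate entry into mitochondria one of 0.09. The 7 genes of the pentose phosphate pathway had a median of 0.19 and the 5 fructose-2,6-bisphosphate enzymes one of 0.11. The 3 gluconeogenic genes had one of 0.27, the 4 glucose and lactate carriers one of -0.23, the 2 glycerol phosphate genes one of -0.21 and the 10 of the HIF1 list one of -0.01. Of the neighbouring muscle isoforms, Eno3, the muscle enolase, measured 57.6, 110 and 83.0 FPKM in siNC and 85.9, 99.8 and 65.1 FPKM in siCNN3, the reverse of the order seen for most members. Pgam1, the mutase between Pgk1 and enolase, stayed between 269 and 335 FPKM in the 6 libraries. Both were picked after their values were seen.

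Gapdh and Pgk1 were among the less even of 18 genes often used as references. Rplp0, a ribosomal protein gene, had a CV of 3.92%, Rpl13a of 6.32% and the tubulin Tubb5 of 6.66%, while Pgk1 stood at 34.0% and Gapdh at 53.1%, or 24.9% without Gapdh-201. Only B2m (62.7%) and Tfrc (54.2%) exceeded the full Gapdh sum. Of the 18, B2m was called higher in siCNN3 and the rest, Gapdh and Pgk1 included, were not called.

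**Figure D5:**
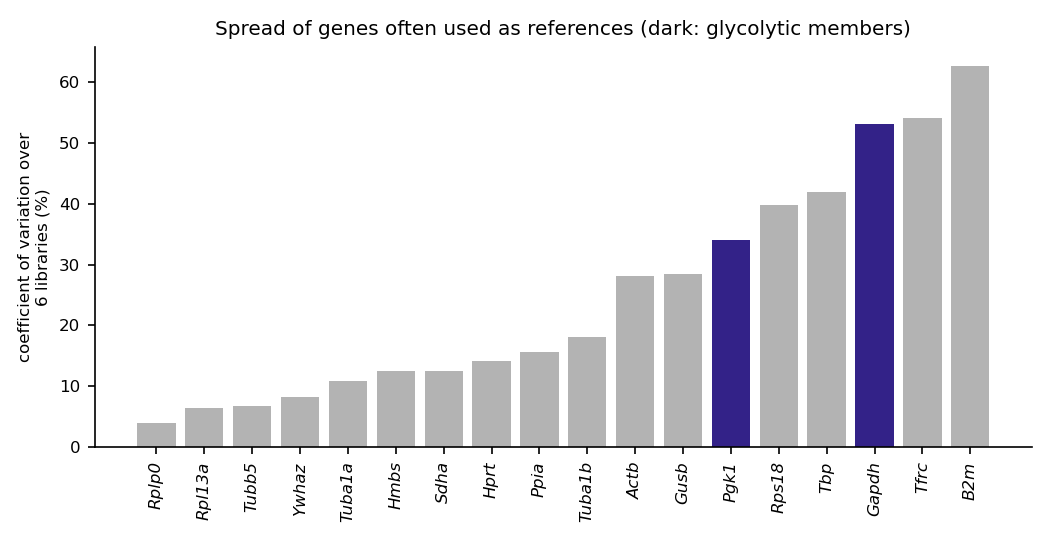
Bars from 0 give the coefficient of variation of summed FPKM over the 6 libraries for 18 genes often used as references, sorted, with Gapdh and Pgk1 dark. Gapdh at 53.1% is the third from the right and Pgk1 is at 34.0%, against 3.92% for Rplp0.

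Dividing by a member changed what other genes showed. Relative to the siNC mean, Cnn3 stood at 30.5%, 62.9% and 41.0% in the siCNN3 libraries with no reference, and at 31.6%, 63.7% and 35.8% per Tubb5. Per Gapdh it stood at 42.4%, 76.1% and 17.4%, and per Gapdh without Gapdh-201 at 42.4%, 76.1% and 47.1%. The siNC spread grew from an SD of 1.35% with no reference to 25.2% per Gapdh and 23.9% per Pgk1. For Tpi1, the member whose groups did not overlap, the siCNN3 values were 117%, 116% and 123% with no reference, and 161%, 139% and 51.4% per Gapdh, beside siNC values of 65.1%, 126% and 109% on that scale, so the groups overlapped. Per Gapdh without Gapdh-201 the siCNN3 values were 161%, 139% and 139%, and the groups did not overlap, nor did they per Rplp0. Per Tubb5 they overlapped, with siCNN3-3 at 107% and siNC-3 at 114%.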

How the data were processed

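RNA libraries of 3 siNC and 3 siCNN3 samples of C2C12 cells were analysed as deposited. The authors' file gives FPKM per Ensembl transcript for each library. The submitters' processing notes name Bowtie 0.12.2 and the builds mm8 and mm10, with no role for either, and the counting tool and annotation are not given in the sources used here. No further normalization was applied. Transcript identifiers were matched, version dropped, to GENCODE M21 (GRCm38). Of 24023 identifiers 23959 matched, and the other 64 held 0.104% to 0.136% of the FPKM. FPKM were summed over all transcripts of a symbol.

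Group differences were fitted with limma 3.58.1 (R 4.3.3; moderated test with trend) on log2(FPKM + 1) across all features with a mean of at least 0.5 FPKM, and p-values were adjusted by Benjamini-Hochberg over all of them, with a threshold of 0.05. A fold change on this scale understates the change of low genes. Exact permutation tests used all splits of 3 against 3. Low values times transcript length did not fall on whole multiples of a step, so depth is unknown and no counting interval is given.

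All 10 members and their transcripts were accounted for. Values by library were given for each member's leading transcript, any member transcript that combined a 0 in some library with 10 FPKM or more elsewhere, and any member transcript called. They were also given for the 3 largest changes of the other-gene lists, Cnn3, and the 5 genes of at least 100 FPKM closest in profile to the full Gapdh sum. One gene fixed for the reference list beside the 18 shown is not reported here. Other members' transcripts and list genes given by library were picked after their values were seen. Members and lists were chosen with earlier results of these data known. Shared 50-base words were counted in GENCODE transcripts of other genes. Alternatives were another pseudocount, filter, scaling, limma without a trend, the replicate block, other sums over transcripts and leaving out each library.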

Additional observations from a re-analysis of the deposited data

How the results depend on the processing

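No member was called under any of the 15 alternatives, and Hk2, Pfkm, Tpi1, Pgk1 and Eno1 kept their direction in all of them. Summing only transcripts above 0 in all libraries gave Gapdh a log2 fold change of -0.35 and 125 genes called higher in place of 201. Taking the leading transcript of each gene gave -0.48 for Gapdh, 0.091 for Pkm and -1.95 for Ldha, with 100 genes called higher and 22 lower. Quantile normalization gave -0.037 for Ldha and 92 genes called lower in place of 39, and median-of-ratios scaling gave 63. The cause of these shifts was not tested beyond the transcripts named above.

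Leaving out 1 library at a time moved the log2 fold change of Aldoa from -0.40 to 0.045, of Gapdh from -0.40 to 0.45, of Gpi1 from -0.43 to 0.31, of Ldha from -0.018 to 0.16 and of Pkm from -0.23 to 0.025. For the transcripts Aldoa-201, Gpi1-201 and Pkm-201 the ranges were -0.32 to 0.12, -0.42 to 0.32 and -0.039 to 0.23. Without a change of sign, Hk2 ran from 0.14 to 0.59, Pfkm from -0.69 to -0.30 and Pgk1 from -0.78 to -0.040, the lower end of each without siCNN3-3 and the upper without siCNN3-1, and Eno1 from 0.0028 (without siCNN3-3) to 0.13 (without siCNN3-2). Ldha-201 ran from -2.94 without siCNN3-1 to -1.17 without siCNN3-3. The sign turned without siNC-1 for Aldoa and Gpi1, without siNC-2 for Gapdh, without siNC-3 for Gpi1, without siCNN3-1 for Aldoa and Gpi1, without siCNN3-2 for Gpi1 and Pkm, and without siCNN3-3 for Gapdh and Ldha. Genes called ranged from 16 to 447 higher and from 4 to 162 lower, the most without siCNN3-3, and transcripts from 1 to 271 higher and from 0 to 56 lower. Between 0 and 1 member transcripts and between 0 and 4 of the other metabolic genes were called.

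With the replicate number as a block, 62 genes were called higher and 6 lower, and 0 transcripts either way in place of 100 and 17. Deviations of equally numbered samples correlated at -0.28, 0.31 and -0.02, not every sample was closest to its own number, and the samples share only a number. Without depth, counting error could not be separated from the spread between libraries.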
